A study of Mus musculus with 20 samples.

Results

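The pro-survival BCL-2 family genes are Bcl2, Bcl2l1 (BCL-XL), Bcl2l2 (BCL-W), Mcl1 and the A1 genes Bcl2a1a, Bcl2a1b and Bcl2a1d. These 7 genes were taken by gene symbol from the 25869 genes of an RNA-seq table of 20 mouse libraries. The MEFs (mouse embryonic fibroblasts) came from WT embryos (2 libraries) or from dCas9a-SAM KI/+ embryos without an sgRNA (2), with a non-targeting sgRNA called sgNT (2), or with an sgRNA for Bcl-2 (4, called sgBcl-2). The dCas9a-SAM cassette holds a dead Cas9 and the proteins that recruit transcriptional activators to the site of a guide. It lies in the Rosa26 locus behind a CAG promoter, and its stop cassette was removed in the germline, so that all tissues express it. The guides were delivered by lentivirus. The sgNT, no sgRNA and sgBcl-2 libraries come from MEF lines numbered 1 and 2, with 2 sgBcl-2 libraries for each line.

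The lymphomas arose from haematopoietic stem and progenitor cells of Eµ-Myc/dCas9a-SAM KI/+ mice, which express Myc from an immunoglobulin enhancer. The cells were transduced with sgBcl-2 and transplanted into lethally irradiated mice, so that host cells can be present in a primary tumour. There were 6 cell lines from 6 mice, of which 4 are labelled IgM-positive (lines 1 to 4) and 2 IgM-negative (lines 1 and 2), and 2 primary tumours of the mice that gave IgM-positive lines 1 and 2. All lymphoma samples carry both the Myc transgene and sgBcl-2, and no lymphoma without sgBcl-2 was analysed here. The 2 preB-ALL (precursor B acute lymphoblastic leukaemia) libraries carry BCR-ABL1 (p190T/+) and are named P190CreERLSLErg (replicate 1) and P190RagCreErg (replicate 2). They lack both the Eµ-Myc transgene and an sgRNA in their labels, so lineage stage, oncogene and guide cannot be told apart in that comparison.

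Pro-survival BCL-2 proteins sit on the outer mitochondrial membrane and bind the BH3 domains of their pro-apoptotic relatives. They hold the effectors BAX and BAK in check, and BH3-only proteins such as BIM, PUMA and NOXA free the effectors by occupying the binding groove of the pro-survival proteins. BCL-2 is the target of the BH3 mimetic venetoclax, and MCL-1, BCL-XL and A1 can protect cells that have lost BCL-2 activity, which is why the level of each relative is of interest where Bcl2 is switched on.

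The gene Bcl2 (Entrez gene 12043) occupies bases 106538176 to 106714290 of chromosome 1 (GRCm38) and is read from the minus strand. The study designed 3 guides against its promoter, and all 3 match sequence upstream of the RefSeq start in no exon of the GENCODE M21 annotation. They are shown because they set where the activator was directed. The guides are in lower case, 5′ to 3′, and the capitals mark the PAM, the bases next to the site that Cas9 needs.
Bcl-2 sgRNA1: gcgggcgggcgctcagaggaGGG
Bcl-2 sgRNA2: caggaaaccaggcgctccggCGG
Bcl-2 sgRNA3: ggagaatgaagtaagaggccGGG

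Without the PAM, sgRNA1 lies at chr1:106714431-106714450, sgRNA2 at chr1:106714367-106714386 and sgRNA3 at chr1:106714346-106714365 (GRCm38.p6, minus strand). Relative to the RefSeq start of Bcl2 these are the bases from -160 to -141, from -96 to -77 and from -75 to -56. The stretch of the promoter from RefSeq (GRCm38.p6) that holds them, chr1:106714336-106714460 on the minus strand, is given with the guide sites in capitals. The sites of sgRNA2 and sgRNA3 are 1 base apart.
Bcl2 promoter: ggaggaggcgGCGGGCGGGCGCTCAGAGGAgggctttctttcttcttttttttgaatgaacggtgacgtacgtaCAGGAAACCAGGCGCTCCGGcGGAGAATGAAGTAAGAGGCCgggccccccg

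The labels do not say which of these guides was used for the RNA-seq samples. Between 12474885 and 26678417 reads were counted on genes per library, with a median of 23229458, and the preB-ALL libraries were the shallowest. Levels are given as CPM, reads for every 1000000 reads that fell on the listed genes. The defining markers of the labelled cell types were checked. The summed level of 12 fibroblast markers was between 7580 and 23600 CPM in the MEFs and between 5.5 and 60 CPM in the lymphoma lines, and that of 10 B cell markers was between 1310 and 3010 CPM in the lines and between 12.1 and 25.9 CPM in the MEFs. Against their labels, the preB-ALL libraries held fibroblast markers at 5680 and 2420 CPM, and WT MEF 2 held 10 of 10 macrophage markers at 248 CPM, where the other MEFs had between 5.72 and 9.40 CPM. These are bulk samples, in which fewer cells of a type and less RNA per cell cannot be told apart.

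In MEFs, Bcl2 rose with sgBcl-2 and none of its 3 expressed relatives passed the test. Bcl2 had 67.9 and 48.6 CPM in the sgBcl-2 libraries of line 1 and 46.8 and 71.8 CPM in those of line 2, against 13.4 and 13.7 CPM with sgNT. All 4 sgBcl-2 libraries lay above both sgNT libraries, and also above the 6 MEF libraries without sgBcl-2, which ranged from 11.2 to 17.9 CPM. The fold change was 4.51-fold, a log2 fold change of 2.17 (95% confidence interval 1.75 to 2.6, adjusted p = 0.00118, limma). Fold changes in this text come from limma on log2(CPM + 0.1) after TMM scaling, which uses a trimmed mean of the log ratios between libraries, and the p-values are adjusted over all tested genes by the method of Benjamini and Hochberg. The lymphoma lines come from different mice and the MEFs of a group from lines with different numbers, but no source used here says if the paired sgBcl-2 libraries of a MEF line differ by guide or by culture. The spread within such a pair may be technical, or may hold a difference between guides. Each SD with n = 4 and the main fit treat the 4 sgBcl-2 libraries as independent, though they come from 2 MEF lines. Of the 4 members that passed the filter on low counts in this comparison, 1 was called, where 10.8% of all tested genes were called (1592 of 14676). That background fell to 156 of 15025 genes without sgNT replicate 1, to 198 of 15015 without sgNT replicate 2 and to 64 of 15158 with all 10 MEF libraries in the fit, and 1 member was called in each of these fits.

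Bcl2l1 (Entrez gene 12048, chromosome 2 from 152758732 to 152833803) encodes BCL-XL, the pro-survival protein on which platelets and many solid-tissue cells depend. It had 117, 122, 101 and 134 CPM with sgBcl-2 and 92.1 and 98.2 CPM with sgNT. The lowest sgBcl-2 library was above both sgNT libraries, and the difference was 1.32-fold, a log2 fold change of 0.40 (0.13 to 0.66) that missed the threshold (adjusted p = 0.0623, limma). It passed in 3 of 19 alternatives. These were DESeq2 (adjusted p = 0.0142), the fit without sgBcl-2 replicate 3, the first library of line 2 (adjusted p = 0.0235, limma), and the fit with the sgBcl-2 libraries summed per line in a replicate block by MEF line (adjusted p = 0.00654, limma). Its adjusted p over all 19 alternatives ranged from 0.00654 to 0.366. With the no sgRNA libraries added to the control, which had 116.0 and 113 CPM, the log2 fold change was 0.26.

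Bcl2l2 (Entrez gene 12050, chromosome 14 from 54883366 to 54890858) encodes BCL-W, which is needed for sperm production. It had 91.8, 87.8, 86.6 and 91.1 CPM with sgBcl-2 and 111 and 107 CPM with sgNT. The groups did not overlap, with sgBcl-2 lower, and the log2 fold change was -0.20 (-0.34 to -0.06, adjusted p = 0.0754, limma). It passed the threshold in 1 of 19 alternatives, without a scaling factor (log2 fold change -0.29, adjusted p = 0.0216, limma), where the median of all genes moved from -0.01 to -0.10. Its direction turned to 0.035 with the no sgRNA libraries added to the control.

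Mcl1 (Entrez gene 17210, chromosome 3 from 95656944 to 95663179) encodes MCL-1, a short-lived protein that many blood cells need to survive. Its RNA had 162, 166, 172 and 174 CPM with sgBcl-2 and 173 and 149.7 CPM with sgNT. The groups overlapped, and the log2 fold change was 0.16 (-0.01 to 0.32, adjusted p = 0.183, limma). It passed in 0 of 19 alternatives. In the main fit the log2 intervals reached 0.66 upwards for Bcl2l1 and 0.32 for Mcl1, and -0.34 downwards for Bcl2l2. For Bcl2 the lower end was 1.75. These limits hold for that fit only, which treats the paired sgBcl-2 libraries as independent and has sgNT as the only control.

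The response to sgBcl-2 was also compared between the 2 MEF lines. On the log2 scale, the sgBcl-2 minus sgNT difference of line 1 minus that of line 2 was 0.05 for Bcl2, 0.16 for Bcl2l1, -0.0049 for Bcl2l2 and -0.25 for Mcl1. None of these passed (adjusted p = 1 for each of the 4, limma interaction term), but each line has 1 sgNT library and the spread comes from the sgBcl-2 pairs alone, so this does not show that the lines respond alike. A replicate block by MEF line left 1 member called, as without it.

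**Figure D1:**
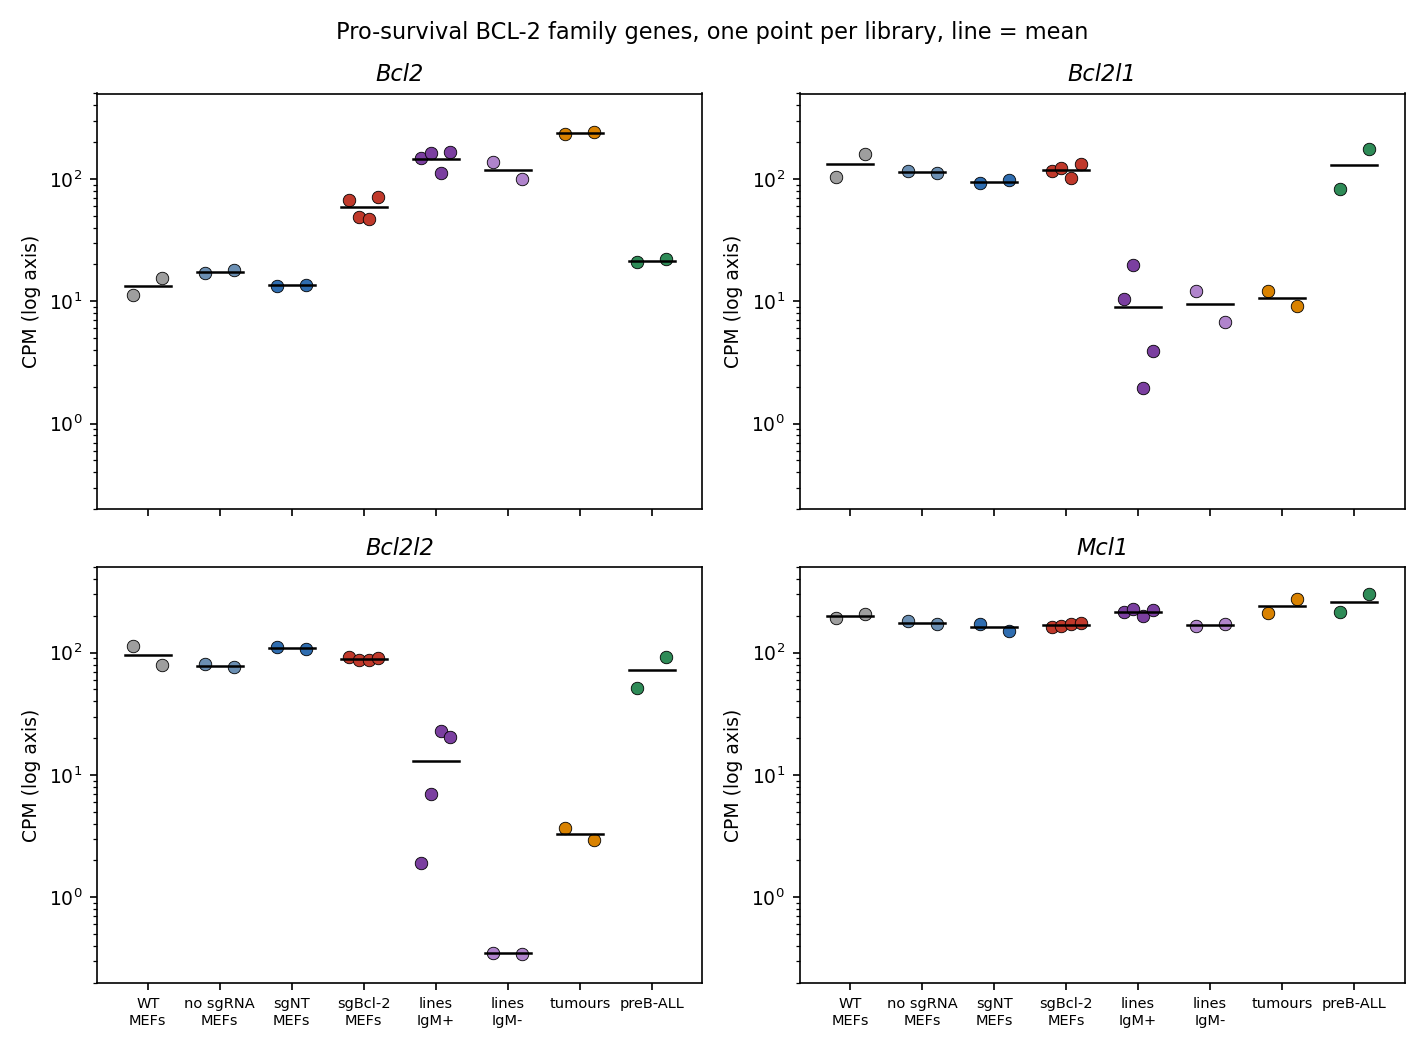
CPM of Bcl2, Bcl2l1, Bcl2l2 and Mcl1 (log axes) in every library, by group, with 1 point per library and a bar at the group mean. In the Bcl2 panel all sgBcl-2 MEFs, lymphoma lines and tumours lie between 46.8 and 244 CPM, above the other groups, whose highest library is at 22.0 CPM.

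The other genes of the pathway were taken from fixed lists of 17 other BCL-2 family genes (BH3-only genes, effectors and remaining homologues) and 19 regulators and downstream genes (turnover of MCL-1, NF-kB, STAT and the caspase cascade). With sgBcl-2, 0 of 12 tested family genes passed the test, and 3 of 19 regulators rose, beside 10.8% of all tested genes. They were Stat3, a transcription factor that can raise Bcl2l1 and Mcl1, with 272 against 187 CPM (log2 fold change 0.63, adjusted p = 0.0124, limma), Nfkb1, a subunit of NF-kB, with 114 against 78.0 CPM (0.63, adjusted p = 0.0143, limma), and Nfkb2 with 66.3 against 47.6 CPM (0.56, adjusted p = 0.0264, limma). All 3 lost their calls without either sgNT library and with all 10 MEF libraries in the fit. Their adjusted p-values were 0.126, 0.129 and 0.169 without sgNT replicate 1, 0.0599, 0.085 and 0.136 without sgNT replicate 2, and 0.204, 0.262 and 0.239 with all 10 MEF libraries. The median log2 fold change was 0.13 over the tested regulators, 0.08 over the tested family genes and -0.01 over all tested genes.

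The sgNT MEFs differed from the no sgRNA MEFs in 3 of the 4 tested members. The guide and its delivery by lentivirus cannot be told apart in this comparison. In the comparison of sgNT with no sgRNA MEFs, 41.1% of all tested genes were called. Bcl2 had 13.4 and 13.7 CPM with sgNT and 17.0 and 17.9 CPM without an sgRNA. Both sgNT libraries were lower, with a log2 fold change of -0.38 (-0.62 to -0.14, adjusted p = 0.023, limma). Bcl2l1 fell as well, with a log2 fold change of -0.28 (-0.45 to -0.11, adjusted p = 0.0186, limma). Bcl2l2 rose from 80.5 and 76.5 CPM to 111 and 107 CPM, 1.38-fold (log2 fold change 0.46, 0.31 to 0.61, adjusted p = 0.00122, limma). Mcl1 had 173 and 149.7 CPM with sgNT and 182 and 170.3 CPM without an sgRNA, and these overlapped (-0.14, -0.32 to 0.03, adjusted p = 0.162, limma). Fibroblast markers moved in the same comparison, with 8 of 12 higher and 1 lower with sgNT. Dcn, a matrix proteoglycan, was at 104.5 against 13.8 CPM and Thy1 at 785 against 179.6 CPM, while Fn1 was at 5242 against 8231 CPM. Their part in the member differences was not tested.

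The sgNT libraries are thus the lower control for Bcl2 and Bcl2l1 and the higher one for Bcl2l2. They are shared with the comparison of sgBcl-2 and sgNT, so the values of both stand side by side without a test of their relation. The calls, but not the sizes of the differences, depended on the spread used. With all 10 MEF libraries in the fit the log2 fold changes were -0.37 for Bcl2 (adjusted p = 0.4, limma), -0.27 for Bcl2l1 (adjusted p = 0.427, limma) and 0.47 for Bcl2l2 (adjusted p = 0.19, limma). In that fit with all 10 MEF libraries 0 members were called, and the genes called fell from 6029 of 14655 to 901 of 15158. DESeq2, on the sgNT and no sgRNA libraries, called 2 members, among 4632 of 14655 genes, and lost Bcl2 (adjusted p = 0.0816). With 1 library left out, between 1 and 3 members were called: Bcl2l2 alone without no sgRNA replicate 1, no sgRNA replicate 2 or sgNT replicate 1. Among the 11 tested family genes, 2 rose and 5 fell with sgNT, beside 41.1% of all tested genes called. Those that fell include Pmaip1 (NOXA, a BH3-only protein that binds MCL-1), with 46.1 against 162 CPM (log2 fold change -1.83), the effectors Bok (-1.10) and Bak1 (-0.53) and the BH3-only gene Bbc3 (PUMA, -0.34), whereas the BH3-only genes Bcl2l11 (BIM, 0.42) and Bid (0.29) rose. Of the 19 regulators 4 rose, among them Stat5b (0.31) and Marchf5 (0.31), a ligase of the outer mitochondrial membrane that acts on MCL-1. With all 10 MEF libraries in the fit, 7 of these genes missed the threshold, with adjusted p-values from limma of 0.0902 for Bok, 0.129 for Bak1, 0.474 for Bbc3, 0.613 for Bcl2l11, 0.517 for Bid, 0.385 for Stat5b and 0.114 for Marchf5. Bbc3 also missed it with any 1 library left out, Bcl2l11 and Bid with 3 of the 4 left out in turn, and all 3 under DESeq2 (adjusted p from 0.0591 to 0.0825). Stat5b missed it without no sgRNA replicate 2 (adjusted p = 0.0782, limma), and Marchf5 without no sgRNA replicate 1 or sgNT replicate 1 (adjusted p = 0.0934 and 0.074, limma).

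The cassette without a guide was compared with WT MEFs, and 0.0% of 14546 tested genes were called by limma, with 1081 at an unadjusted p under 0.05, 0 called by edgeR and 188 by DESeq2. None of the 4 tested members was called by limma. With all 10 MEF libraries in the fit, limma called 717 of 15158 genes and 0 members. WT MEF 1 and WT MEF 2 had 11.2 and 15.4 CPM of Bcl2, 103 and 159.9 CPM of Bcl2l1, 113 and 79.0 CPM of Bcl2l2 and 193 and 206 CPM of Mcl1. The 2 WT libraries thus lay apart, and the no sgRNA libraries fell between them for Bcl2l1 and on the side of WT MEF 2 for Bcl2l2. For Bcl2 both no sgRNA libraries, at 17.0 and 17.9 CPM, lay above both WT libraries, and for Mcl1, at 182 and 170.3 CPM, below both. The intervals of the log2 fold change were wide, from -0.20 to 1.09 for Bcl2, from -0.75 to 0.49 for Bcl2l1, from -1.04 to 0.59 for Bcl2l2 and from -0.62 to 0.34 for Mcl1.

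These values turned on which WT library was used. WT MEF 2 is the library with macrophage markers, and its summed fibroblast markers were 7580 CPM against 17000 CPM in WT MEF 1 and 16400 to 23600 CPM in the other MEFs. Without WT MEF 2, the log2 fold change was 0.58 for Bcl2 (adjusted p = 0.0113, limma) and -0.58 for Bcl2l2 (adjusted p = 0.00152, limma), whereas without WT MEF 1 it was -0.31 for Bcl2l1 (adjusted p = 0.0245, limma), with the lone WT library assumed to vary like the no sgRNA group. These fits called 4712 of 14806 genes without WT MEF 2 and 8581 of 15566 without WT MEF 1, so the member calls stand among many. In the comparison of sgNT with WT MEFs, again 0.0% of 14560 genes were called by limma, with 589 at an unadjusted p under 0.05, 0 by edgeR and 83 by DESeq2. The log2 fold changes were 0.05 for Bcl2 (-0.65 to 0.75), -0.42 for Bcl2l1 (-1.09 to 0.25), 0.22 for Bcl2l2 (-0.56 to 1.00) and -0.30 for Mcl1 (-0.81 to 0.22). Without WT MEF 1, sgNT was lower for Bcl2l1 (-0.62, adjusted p = 0.0149, limma) and higher for Bcl2l2 (0.60, adjusted p = 0.00903, limma), in a fit that called 8424 of 15768 genes. The genes called were 1644 of 14702 without WT MEF 2 and 68 of 15158 with all 10 MEF libraries, with 0 members called in either. The 2 comparisons share the WT libraries.

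**Figure D2:**
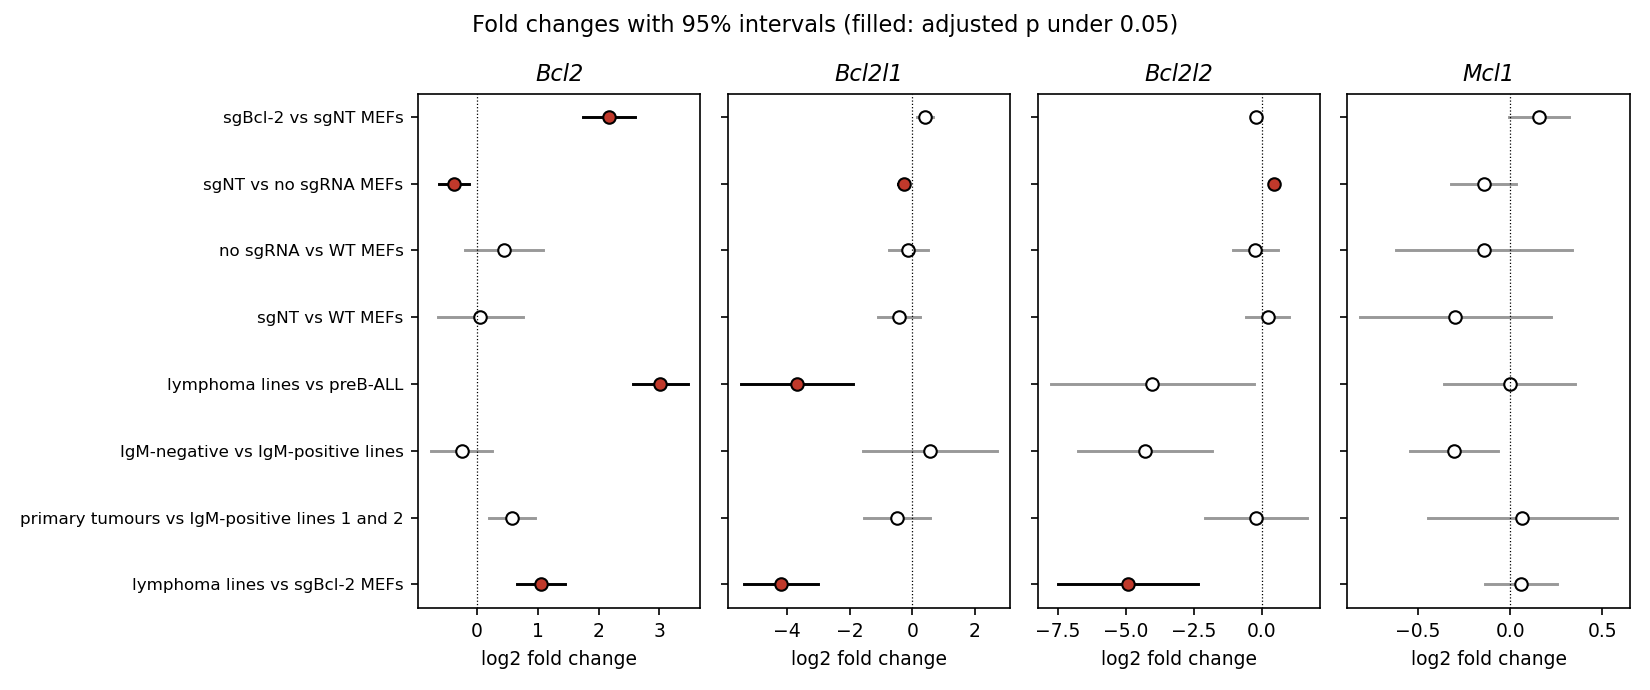
Log2 fold change of each tested member in the 8 comparisons, on the log2(CPM + 0.1) scale after TMM scaling, with 95% confidence intervals from limma. Filled points passed an adjusted p of 0.05, and Bcl2 is at 2.17 in sgBcl-2 against sgNT MEFs and at 3.02 in lymphoma lines against preB-ALL.

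In the 6 lymphoma lines, Bcl2 was higher and Bcl2l1 (BCL-XL) lower than in preB-ALL, Bcl2l2 (BCL-W) was below preB-ALL in every line without passing the test, and Mcl1 overlapped. Bcl2 had 148, 163.5, 112 and 165 CPM in IgM-positive lines 1 to 4 and 138.1 and 99.4 CPM in IgM-negative lines 1 and 2, or 137.6 ± 27.0 CPM (SD, n = 6). It was 20.8 and 22.0 CPM in preB-ALL. All 6 lines lay above both preB-ALL libraries, 8.08-fold, with a log2 fold change of 3.02 (2.57 to 3.46, adjusted p = 9.03e-06, limma) that passed in 20 of 20 alternatives. Of the 4 tested members 2 were called, where 43.4% of all tested genes were called. The RNA of preB-ALL was extracted with another kit and sequenced on another flow cell, and these cannot be told apart from the tumour type.

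Bcl2l1 had 10.5, 19.7, 1.97 and 3.93 CPM in IgM-positive lines 1 to 4, 12.2 and 6.77 CPM in IgM-negative lines 1 and 2, and 82.5 and 177 CPM in preB-ALL. Every line was below both preB-ALL libraries, and the mean of the lines was lower by a log2 fold change of -3.69 (-5.49 to -1.91, adjusted p = 0.00583, limma). Without preB-ALL replicate 2, the library with 177 CPM, it was -3.24 and no longer passed (adjusted p = 0.0914, limma), in a fit whose calls fell from 6059 of 13961 genes to 3177 of 14333. Bcl2l2 had 1.91, 7.01, 22.8, 20.4, 0.352 and 0.345 CPM in the same order of lines, and 51.4 and 92.4 CPM in preB-ALL. The groups did not overlap either, but the spread between lines was wide and the log2 fold change of -4.03 (-7.78 to -0.28) did not pass (adjusted p = 0.0781, limma). It passed under limma-voom (adjusted p = 0.017) and without IgM-positive line 3 (adjusted p = 0.0462, limma).

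Fibroblast markers moved with these 2 genes, and both genes are expressed in MEFs. The summed fibroblast markers were 5680 CPM in preB-ALL replicate 1 and 2420 CPM in replicate 2. Bcl2l1 and Bcl2l2 were lower in replicate 1, the library with the higher sum. The part of these markers in the result was not tested.

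Mcl1 had 215, 227, 199 and 225 CPM in IgM-positive lines 1 to 4, 165 and 171 CPM in IgM-negative lines 1 and 2, and 216.2 and 303 CPM in preB-ALL. The groups overlapped, and the log2 fold change was -0.002 (-0.36 to 0.35, adjusted p = 0.994, limma) with TMM scaling and -0.36 without a scaling factor, where the median of all genes moved from -0.07 to -0.42. The interval leaves room for a change of Mcl1 of up to 0.36 downwards or 0.35 upwards on the log2 scale. The A1 genes had 0 reads in all 6 lines and in both preB-ALL libraries. A count of 0 allows 3 reads, which is between 0.112 and 0.149 CPM in the lines and 0.2 and 0.241 CPM in preB-ALL, for counting error only.

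Of the other family genes, 2 of 13 tested were higher and 4 were lower in the lines than in preB-ALL, a share near the 43.4% of all tested genes. The higher ones were the BH3-only gene Bid (log2 fold change 0.89) and Bcl2l13 (0.74). The lower ones were Bmf, a BH3-only gene, with 19.0 against 123 CPM (-2.22), Bok with 0.779 against 47.5 CPM, Bcl2l12 (-1.13) and Bcl2l15 with 0.118 against 3.42 CPM. Of the 19 regulators, 4 were higher and 1 was lower, a share below that of all genes, and they include Usp9x, a deubiquitinase that stabilises MCL-1 (1.35), and Cycs, the somatic cytochrome c that triggers the apoptosome, with 128 against 6.30 CPM (4.68). Cycs has processed pseudogenes with which reads can be shared, so its value is uncertain. Without preB-ALL replicate 2, Bid (0.54, adjusted p = 0.0983), Bcl2l13 (0.36, adjusted p = 0.058) and Bmf (-1.47, adjusted p = 0.17) missed the threshold, as did Bok without preB-ALL replicate 1 (-6.22, adjusted p = 0.0531, limma). With the tumours in place of IgM-positive lines 1 and 2, the adjusted p from limma was 0.228 for Bcl2l13, 0.148 for Bmf, 0.145 for Bcl2l12 and 0.0798 for Usp9x. Bcl2l13 was also lost without a scaling factor (adjusted p = 0.0852, limma).

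The lines differed among themselves far more in Bcl2l2 and Bcl2l1 than in Bcl2 and Mcl1. The highest line was 1.37-fold above the lowest for Mcl1, 1.66-fold for Bcl2, 10.0-fold for Bcl2l1 and 66.2-fold for Bcl2l2. The coefficient of variation was 13.4%, 19.6%, 70.1% and 116% in the same order. Bcl2l2 rested on 9 and 8 reads in IgM-negative lines 1 and 2, so that its low values there are near the lower limit of the depth.

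These lowest lines of Bcl2l2 are the IgM-negative ones. Both were below all 4 IgM-positive lines, with a log2 fold change of -4.29 (-6.75 to -1.82), which did not pass after adjustment (adjusted p = 0.208, limma). Over 15 alternatives it ranged from -5.17 to -2.93. Mcl1 was lower in both IgM-negative lines as well, with 165 and 171 CPM against 199 to 227 CPM (-0.31, -0.55 to -0.07, adjusted p = 0.332, limma). Bcl2 (-0.25, -0.76 to 0.25) and Bcl2l1 (0.56, -1.58 to 2.71) overlapped between the groups. No member of the 4 tested was called by limma or edgeR, where 0.597% of all tested genes were called by limma. DESeq2 called Bcl2l2 (adjusted p = 2.33e-05) and Mcl1 (adjusted p = 0.0182), among 749 of 12386 genes that it called. The summed level of 5 pre-B cell markers moved with this label, with 16.0 and 67.4 CPM in the IgM-negative lines and between 250 and 1040 CPM in the others. Summed B cell markers were 1540 and 1310 CPM in the IgM-negative lines and between 1650 and 3010 CPM in the others. Macrophage markers were at 2.81 and 4.66 CPM against 5.95 to 15.7 CPM, whereas fibroblast and T cell sums overlapped. The part of these markers in the result was not tested.

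Whether lines with more Bcl2 held more or less of a relative was examined over the 6 lines, with log2(CPM + 0.1) after TMM scaling and exact permutation over all pairings. For Mcl1, Pearson's r was 0.647 (two-sided exact permutation p = 0.144, adjusted p = 0.432 over 3 relations) and Spearman's rho 0.771 (exact permutation p = 0.103, adjusted p = 0.309). For Bcl2l1, r was 0.396 (exact permutation p = 0.433, adjusted p = 0.479) and rho 0.257 (exact permutation p = 0.658, adjusted p = 0.658). For Bcl2l2, r was 0.331 (exact permutation p = 0.479, adjusted p = 0.479) and rho 0.429 (exact permutation p = 0.419, adjusted p = 0.628). None passed.

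Without the 2 lines farthest from the median of Bcl2, r was 0.808 for Mcl1, -0.648 for Bcl2l1 and 0.986 for Bcl2l2, so the sign for Bcl2l1 rested on those lines. With 1 line left out, r for Mcl1 ranged from 0.38 to 0.935 and passed an unadjusted exact permutation test without IgM-positive line 3 (r = 0.749, p = 0.0417) and without IgM-negative line 1 (r = 0.935, p = 0.0167). The range was 0.106 to 0.707 for Bcl2l1 and -0.163 to 0.749 for Bcl2l2, with the negative value without IgM-negative line 2. The values with lines left out rest on fewer than 6 lines and serve as a check only. No correlation was computed within the IgM-positive (4) or the IgM-negative (2) lines.

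**Figure D3:**
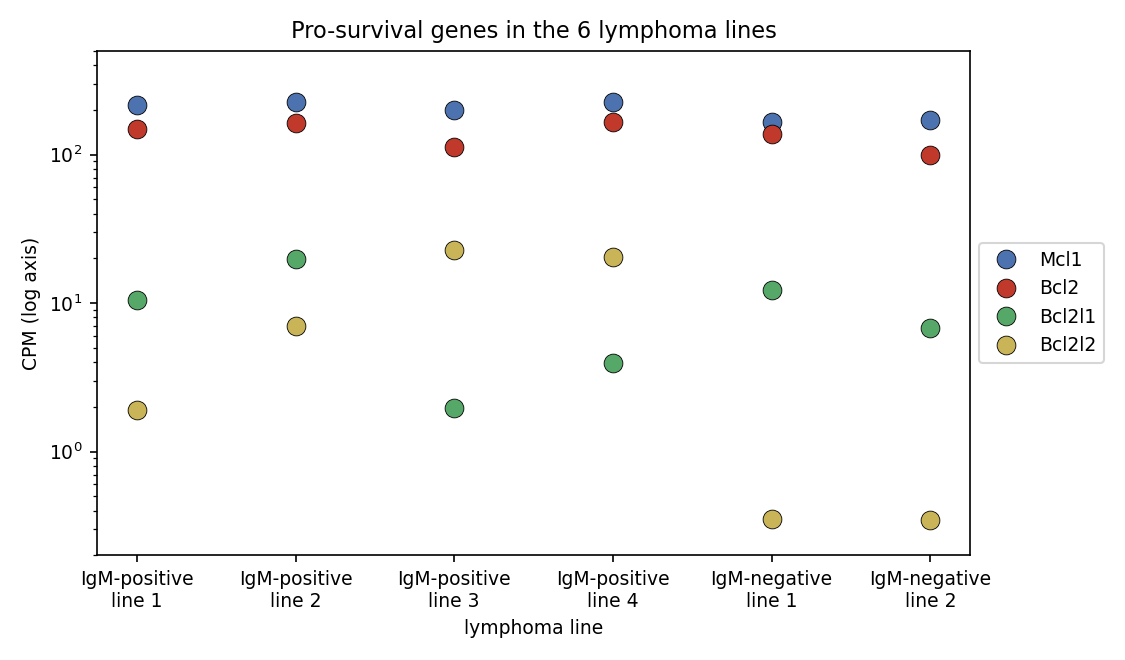
CPM of Mcl1, Bcl2, Bcl2l1 and Bcl2l2 (vertical log axis) in each of the 6 lymphoma lines (horizontal axis), 1 point per gene and line. Bcl2l2 spreads over a 66.2-fold range and is lowest in the 2 IgM-negative lines, whereas Mcl1 spreads over 1.37-fold and stays between 165 and 227 CPM.

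In the 2 primary tumours, Bcl2 was above the lines derived from the same mice in every library, but the difference did not pass the test. Bcl2 had 235 and 244 CPM in the tumours and 148 and 163.5 CPM in IgM-positive lines 1 and 2. The difference was 1.49-fold, a log2 fold change of 0.57 (0.20 to 0.95, adjusted p = 0.103, limma). DESeq2 gave an adjusted p of 0.0206, in a fit that called 2100 of 12719 genes. The labels contradict each other on which tumour came from which mouse. A replicate block that follows the titles gave Bcl2 an adjusted p of 0.0258, and one that follows the descriptions 0.379 (limma). The block by the titles called 3600 of 12719 genes and that by the descriptions 0, against 42 without a block. Of the 5 tested members 0 were called, where 0.33% of all tested genes were called, with 3295 genes at an unadjusted p under 0.05 and 0 members called by edgeR. The summed B cell markers moved with the tumours, with 10100 and 9850 CPM against 2650 and 3010 CPM in these lines, as did the 8 T cell markers, which summed to 223 and 289 CPM in the tumours and to between 8.64 and 66.2 CPM in the 6 lines. The 5 pre-B cell markers went the other way, with 44.9 and 1.75 CPM in the tumours and 250 and 597 CPM in IgM-positive lines 1 and 2. The part of these markers in the Bcl2 values was not tested.

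Bcl2l1 had 12.2 and 9.23 CPM in the tumours, Bcl2l2 3.68 and 2.94 CPM and Mcl1 210.2 and 272 CPM. All 3 overlapped with IgM-positive lines 1 and 2. The log2 fold changes were -0.49 for Bcl2l1 (adjusted p = 0.491, limma), -0.20 for Bcl2l2 (adjusted p = 0.883, limma) and 0.07 for Mcl1 (adjusted p = 0.859, limma). The values of Bcl2l1 and Bcl2l2 in both tumours lay below those of every preB-ALL and MEF library.

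Summed over the copies, the A1 genes had over 3 reads only in the 2 tumours and in 1 MEF library, of the 20 libraries. A1 is an NF-kB target expressed in myeloid cells and activated lymphocytes. In the mouse it is encoded by near-identical copies on chromosome 9, Bcl2a1a (Entrez gene 12044, 88956920 to 88962416), Bcl2a1b (12045, 89199273 to 89207838) and Bcl2a1d (12047, 88723288 to 88731850). The first 60 coding bases of each copy (GENCODE M21) are shown because they show how few positions tell the copies apart. The capitals mark positions at which the copies differ, 6 in this stretch and 12 of 516 in the coding sequence.
Bcl2a1a: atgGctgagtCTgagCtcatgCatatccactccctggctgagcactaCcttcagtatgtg
Bcl2a1b: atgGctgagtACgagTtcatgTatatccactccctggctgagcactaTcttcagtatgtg
Bcl2a1d: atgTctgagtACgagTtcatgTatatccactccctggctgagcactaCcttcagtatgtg

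Over the coding sequence, identity was 97.9% between Bcl2a1a and Bcl2a1b, 98.6% between Bcl2a1a and Bcl2a1d and 98.8% between Bcl2a1b and Bcl2a1d. Of all windows of 75 bases of the transcript, 44.8% of Bcl2a1a, 56.5% of Bcl2a1b and 32.4% of Bcl2a1d were found in no other copy. The values of single copies are therefore uncertain, and the copies were added up.

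The A1 sum was 1.58 CPM (36 reads) and 1.75 CPM (35 reads) in the tumours, against 0 reads in IgM-positive lines 1 and 2. With the floor of 3 reads per line as the level of the lines, the mean of the tumours was 14.2-fold higher. Counting error in the tumours is not part of this value. Bcl2a1b alone had 28 and 17 reads in the tumours, and its adjusted p was 0.0724 in limma, 0.0265 in DESeq2 and 0.0197 in limma with the replicate block by the titles, and 0.286 with that by the descriptions. In WT MEF 2 the sum was 4.29 CPM (113 reads), of which 102 reads were counted on Bcl2a1b. The other 9 MEF libraries had at most 1 read on any copy, and WT MEF 1 and the no sgRNA libraries had 0.

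The 3 libraries with over 3 reads of A1 were also the 3 with the highest macrophage marker sums. The summed macrophage markers were 248 CPM in WT MEF 2 and 43.2 and 34.4 CPM in the tumours, with 10 of 10 markers detected in each, and between 2.81 and 15.7 CPM in the lines, where 4 markers were at 0 in every line. They were 12.0 and 26.5 CPM in preB-ALL, where A1 was at 0. The T cell markers, high in the tumours, were at 7.64 CPM in WT MEF 2, against 0.053 to 0.621 CPM in the other 9 MEF libraries, and at 44.0 and 195 CPM in preB-ALL, where A1 was at 0. The part of these cell types in the A1 reads was not tested.

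**Figure D4:**
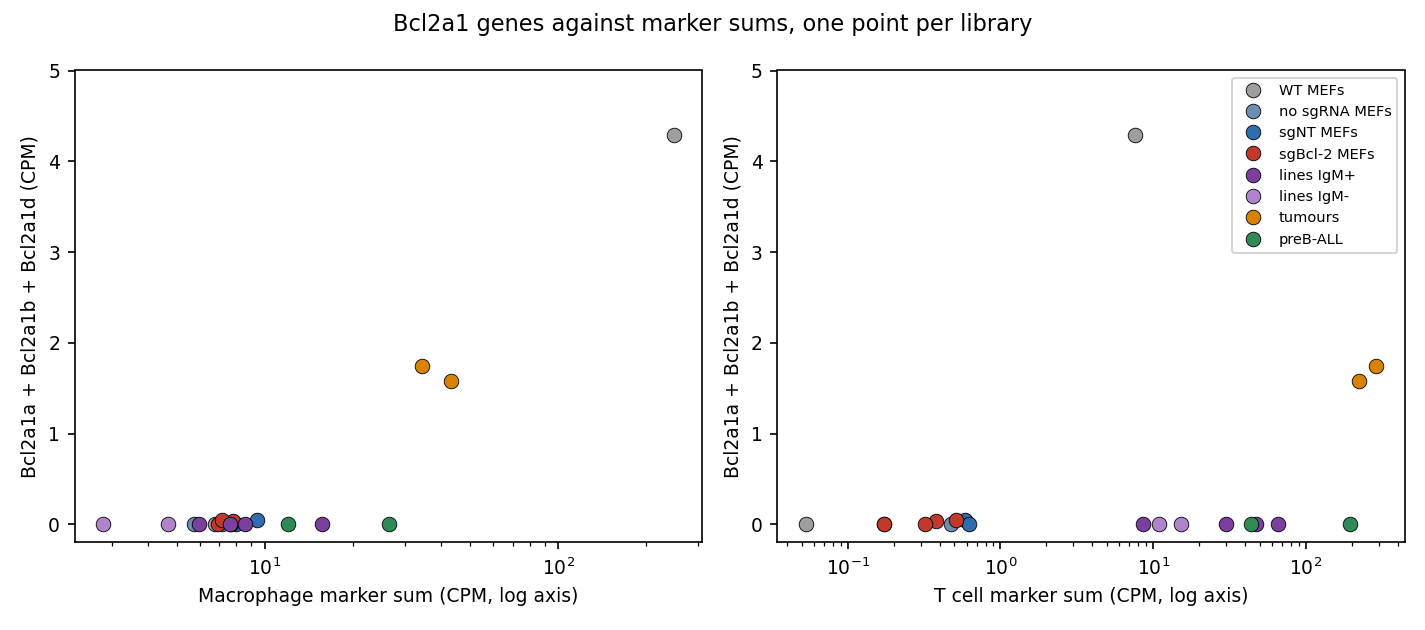
Summed CPM of Bcl2a1a, Bcl2a1b and Bcl2a1d (vertical axis) against the summed CPM of macrophage markers (left, log axis) and of T cell markers (right, log axis), 1 point per library, coloured by group. WT MEF 2 lies at 248 CPM of macrophage markers and 4.29 CPM of A1, and the tumours at 43.2 and 34.4 CPM of markers with 1.58 and 1.75 CPM of A1.

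The 2 settings in which Bcl2 was activated were compared with each other, lymphoma lines against sgBcl-2 MEFs. They differ in cell type, the Myc transgene and culture, and 81.3% of all tested genes were called. Of the 4 tested members 3 were called. Bcl2 was 2.07-fold higher in the lines (log2 fold change 1.05, 0.66 to 1.44, adjusted p = 0.000237, limma), and the lowest line, at 99.4 CPM, was above the highest sgBcl-2 MEF library, at 71.8 CPM. Bcl2l1 was 18.3-fold lower in the lines (adjusted p = 2.93e-05, limma) and Bcl2l2 30.4-fold lower (adjusted p = 0.0025, limma), without overlap. The log2 fold change of Bcl2l2 was -4.92, and it ranged from -5.48 to -3.53 over 19 alternatives, all of which called it. Mcl1 overlapped and differed by 0.06 on the log2 scale (adjusted p = 0.535, limma), where unscaled CPM gave 0.24 (adjusted p = 0.0491, limma) and RLE scaling -0.13. The median of all genes was -0.27 with TMM, -0.10 without a scaling factor and -0.46 with RLE.

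Among the other family genes, 4 of 12 were higher and 5 lower in the lines, beside 81.3% of all tested genes called. BIM (Bcl2l11), the BH3-only protein that binds all pro-survival members, had 82.0 against 18.1 CPM (log2 fold change 2.00), whereas the effector Bax (-1.25) and the BH3-only gene Bad (-1.66) were lower. Of the regulators 8 were higher and 7 lower, with Rel, the NF-kB subunit of lymphocytes, at 1.52 and Stat3 at -2.10 and Nfkb2 at -2.71.

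Levels of different members can be compared only per length, so CPM was divided by the length of the longest RefSeq-matched transcript in kb (CPM per kb). The lengths were 7191 bases for Bcl2, 2568 for Bcl2l1, 3509 for Bcl2l2 and 3418 for Mcl1. In sgNT MEFs the mean levels were 47.2 CPM per kb for Mcl1, 37.1 for Bcl2l1, 31.1 for Bcl2l2 and 1.88 for Bcl2, the lowest of the 4. With sgBcl-2, Bcl2 reached 8.17 ± 1.79 CPM per kb (SD, n = 4) and was still lowest, below Bcl2l2 at 25.5 ± 0.711 CPM per kb. Mcl1, at 47.5 to 50.8 CPM per kb, and Bcl2l1, at 39.4 to 52.1, overlapped. The order of Bcl2l1 depended on the length used. With the length of all exons of a gene joined, Mcl1 held 46.9% to 51.9% of the sum with sgBcl-2 and Bcl2l1 22.8% to 26.9%, without overlap, and in sgNT MEFs Bcl2l2 (26.1%) was above Bcl2l1 (22.1%). Bcl2 was lowest of the 4 with either length. WT and no sgRNA MEFs had the same lowest member, with 1.85 and 2.42 CPM per kb of Bcl2.

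In the lymphoma lines the order differed. Mcl1 came first with 58.6 ± 7.85 CPM per kb (SD, n = 6), followed by Bcl2 with 19.1 ± 3.75, and Bcl2l1 (3.58 ± 2.51) and Bcl2l2 (2.51 ± 2.92) overlapped at the low end. The tumours had 70.5 CPM per kb of Mcl1, 33.3 of Bcl2, 4.17 of Bcl2l1 and 0.944 of Bcl2l2. In preB-ALL, Mcl1 (75.9 CPM per kb) and Bcl2l1 (50.6) led, and Bcl2 was at 2.98 CPM per kb.

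As a share of the sum over the 7 members per length, Bcl2 took 1.61% in sgNT MEFs and 6.30% ± 1.12 (SD, n = 4) with sgBcl-2. It took 22.8% ± 2.57 (SD, n = 6) in the lines, 28.2% and 32.1% in the tumours and 2.10% in preB-ALL. Mcl1 held 40.2% in sgNT MEFs, 38.3% with sgBcl-2 and 70.1% ± 3.26 (SD, n = 6) in the lines. The sum itself was 117.3 ± 3.94 CPM per kb (SD, n = 2) with sgNT, 129.1 ± 7.41 (SD, n = 4) with sgBcl-2 and 83.8 ± 12.8 (SD, n = 6) in the lines. Which transcript of Bcl2 was used is unknown. With the shortest transcript, of 2841 bases, its share was 14.2% with sgBcl-2, 42.6% in the lines, where Mcl1 held 52.0%, and 52.1% in the tumours, where it then passed Mcl1 at 43.3%. With this transcript Bcl2 (47.6%) also passed Mcl1 (47.3%) in 1 of the 2 IgM-negative lines.

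**Figure D5:**
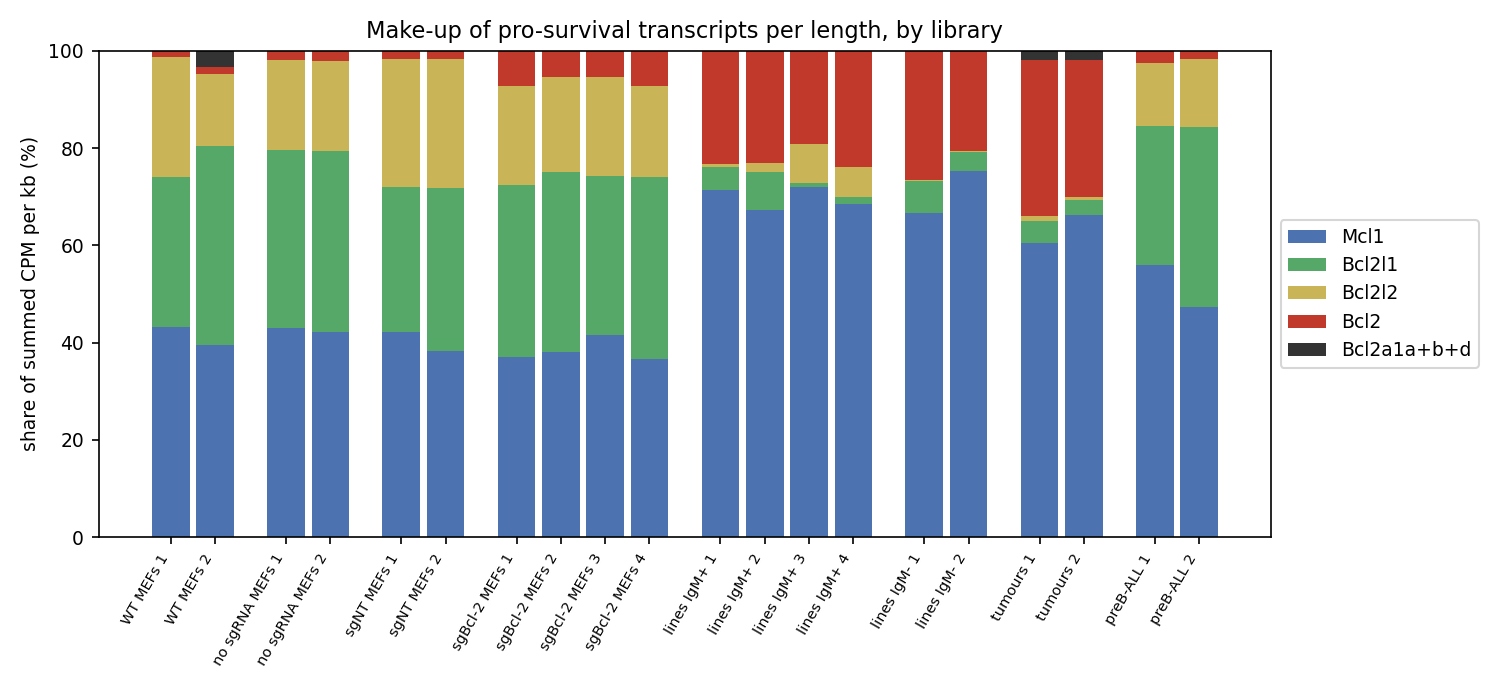
Share of each member in the summed pro-survival RNA per transcript length, in percent, as stacked bars for every library, with the A1 genes as 1 class. Bcl2 rises from a group mean of 1.61% with sgNT to 6.30% with sgBcl-2 in MEFs and to 22.8% in the lymphoma lines, where Mcl1 holds 70.1%.

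Across all 20 libraries, Mcl1 was the steadiest of the 4 expressed members, between 149.7 and 303 CPM, a range of 2.02-fold. The range was 21.8-fold for Bcl2, 89.9-fold for Bcl2l1 and 327-fold for Bcl2l2. The genes whose pattern over the 20 libraries was most like that of a member were named by Pearson's r of log2(CPM + 0.1) among 13779 genes, as a description, since libraries of a group and cell type share their level. They were Diras2 (0.875), Pdxp (0.871) and Gm10257 (0.861) for Bcl2, Maged1 (0.970), Bmp2k (0.968) and Gab1 (0.964) for Bcl2l1, Ptov1 (0.973), Tmem184c (0.970) and Asah2 (0.964) for Bcl2l2, and Ptger1 (0.763), Slc7a7 (0.754) and Hmcn2 (0.750) for Mcl1. The library kit does not mark the strand, so reads of genes that overlap a member cannot be told apart from its own. Such annotated genes are Mir3473f and Gm37053 for Bcl2, Cox4i2 and Gm32211 for Bcl2l1 and Gm10634 for Bcl2a1d, and none overlaps Bcl2l2, Mcl1, Bcl2a1a or Bcl2a1b.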

How the data were processed

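RNA from 10 MEF, 6 lymphoma line, 2 primary tumour and 2 preB-ALL libraries was sequenced. The authors aligned reads to GRCm38 with Rsubread, counted them per Entrez gene and deposited CPM values, without a log, a filter or a scaling factor. The authors' later filter, voom and limma steps are not part of these values. Symbols and coordinates came from RefSeq GRCm38.p6, which matched 25242 of 25869 identifiers. In each library 100% of the CPM values were whole multiples of 1 read (tolerance 1e-06), so read counts were recovered for the filter, floors and count models. Columns without a sample numbered 0.

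Computation used R 4.3.3, limma 3.58.1, edgeR 4.0.16 and DESeq2 1.42.0. Only the groups of a comparison were fitted. Genes were kept by filterByExpr, CPM was TMM-scaled, 0.1 was added, log2 taken, and limma (lmFit, then eBayes with a trend) applied, two-sided, with Benjamini-Hochberg adjustment and a threshold of 0.05. CPM printed per library is unscaled, and fold changes understate the change of low genes. Depth per library was 12474885 to 26678417 reads. Intervals of fold changes are 95% intervals, and floors use 3 reads.

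All 7 members are named in each of the 8 comparisons. From the 2 lists of other genes, those called with the smallest adjusted p were named, at most 8 per comparison, and the 3 genes most like each member were taken among genes with a mean of at least 1 CPM. The members and lists were chosen with earlier results of these data known. Groups came from the labels. Same-numbered MEF libraries of the sgNT, no sgRNA and sgBcl-2 groups share a MEF line by their labels, and the line 1 minus line 2 deviations correlated at 0.326 between sgBcl-2 and sgNT, -0.05 between sgNT and no sgRNA and -0.13 between sgBcl-2 and no sgRNA over 15158 genes. Alternatives were edgeR, DESeq2, limma-voom, other scalings, filters, pseudocounts, thresholds and sample sets, a replicate block and each replicate left out. The code was tested on simulated data.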

Additional observations from a re-analysis of the deposited data

Results flagged for a closer look

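Among the 4 sgBcl-2 MEF libraries, 1 library stood apart for Bcl2a1b, at 0.0377 CPM (replicate 2, the second library of line 1), and another for Bcl2a1d, at 0.0429 CPM (replicate 4, the second library of line 2), where the other 3 libraries were at 0. Each value is 1 read, which is under the floor of 3 reads. Of 14 groups of values tested, only these were marked. The rule always marks a group with 3 libraries at 0 and 1 above, whatever its value, so the marks carry no weight.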

How the results depend on the processing

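Bcl2 kept its call in every alternative of sgBcl-2 against sgNT MEFs (19 of 19) and of the lines against preB-ALL (20 of 20). Members called in sgBcl-2 against sgNT numbered 1, 1 with the replicate block by MEF line, and 2 without a scaling factor, with DESeq2 and with the libraries summed per line with replicate block, and 1 to 2 with 1 library left out. In sgNT against no sgRNA, 3 were called, 3 with the replicate block, 0 with all 10 MEF libraries, 2 with DESeq2, 1 at a threshold of 0.01 and 1 to 3 with 1 left out. In no sgRNA against WT and sgNT against WT, a left-out library leaves 1 in a group, so the spread comes from the other group alone. With 1 line left out, the lines against preB-ALL gave 2 to 3 members, among 5452 to 6061 genes called. DESeq2 called 2 members between IgM labels, among 749 of 12386 genes. In tumours against their lines it called 2 members among 2100 of 12719 genes, and the replicate block by titles 2 among 3600 of 12719.

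Directions turned for Bcl2l2 in sgBcl-2 against sgNT (0.035 with no sgRNA added to the control). With 1 library left out, the log2 fold change in no sgRNA against WT ranged from -0.309 (without WT replicate 1) to 0.096 (without WT replicate 2) for Bcl2l1 and from -0.58 (without WT replicate 2) to 0.165 (without WT replicate 1) for Bcl2l2. In sgNT against WT it ranged from -0.054 to 0.204 for Bcl2 and from -0.117 to 0.598 for Bcl2l2. For Mcl1 in the lines against preB-ALL it ranged from -0.232 to 0.143, and was 0.013 without a filter and 0.096 with IgM-positive lines only. For Bcl2 between IgM labels it ranged from -0.505 to 0.021. In tumours against lines it ranged from -1.08 to 0.658 for Bcl2l2 and from -0.134 to 0.306 for Mcl1. In lines against sgBcl-2 MEFs, Mcl1 was -0.134 with RLE and -0.128 with DESeq2. The correlation of Mcl1 with Bcl2 ranged from 0.38 to 0.935. The cause of these moves was not tested. Groups of 2 limit every comparison that holds them, and depth limits Bcl2l2 in the IgM-negative lines and the A1 genes.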
